A study of Mus musculus with 15 samples.

Results

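A set of 10 names was followed through the pancreas arrays: S100a8, S100a9, Clec4d, Csf3r, Fpr1, Fpr2, Retnlg, Cd14, Ly6g and Cd177, genes used as markers of neutrophils and monocytes. They were chosen by name, and each was located on the array through the RefSeq accession that the scanner files attach to its probe. Of the 10 genes, 9 had a probe, 1 each, among 20660 genes with a probe, and no probe was matched to Ly6g. A gene counted as measured when its probe lay well above background on at least 3 of the 15 arrays, by the scanner's own flag, which left 8 of the 10 genes among 17339 measured genes. Fpr2 was the gene lost at that step, with a signal well above background on 2 arrays.

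The arrays measured RNA of whole pancreas from male C57BL/6J mice, 1 mouse per array, that were either wild type or transgenic. The series title ties the study to betacellulin, a ligand of the epidermal growth factor receptor family, and to its receptor ERBB4, but the transgene's promoter is not given in the sources used here. All mice were fasted for 18 h, received 1 intraperitoneal injection of cerulein at 50 µg/kg or of saline, with the gland taken 3 h afterwards; mice given saline also carry a label of 0 h. Cerulein is a cholecystokinin analogue that overstimulates acinar cells and starts an acute pancreatitis. Each treated group had 4 arrays, as did the wild type mice given saline, while 3 arrays of transgenic saline mice were analysed here and the design text states 4 animals per group; mice are named below by the number in their label.

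Neutrophils are the first leukocytes to enter an inflamed tissue, followed by monocytes, and both are drawn from blood by chemokines that the damaged tissue and its resident macrophages release. S100a8 and S100a9 encode the subunits of calprotectin, which fills the cytosol of neutrophils and is also made by monocytes. Surface receptors complete the marker set: they sense microbial products (Cd14, Clec4d), formylated peptides (Fpr1, Fpr2) and granulocyte growth factor (Csf3r). In acute pancreatitis, neutrophils in the gland are known to worsen injury of the acinar cells.

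Levels are given as log2 of the processed signal minus the array's own 75th percentile, so 0 is the signal that 75% of the probes did not exceed. A level compares arrays for 1 probe and says nothing about 1 gene against another. The 75th percentile of the signal ran from 152 to 529 across the arrays, and the share of probes called well above background from 54.9% to 76.0%, lowest among the wild type saline arrays (54.9% to 65.3%). All 12 measured acinar genes were well above background on every array, so the tissue named in the labels has its defining markers. The 15 arrays came from 3 slides, told apart by their array barcodes, of which slide 2 held 1 transgenic and 2 wild type cerulein arrays and no saline array. Differences were tested with limma over all 17339 genes, and a gene is said to have risen or fallen where the Benjamini-Hochberg adjusted p was below 0.05. In tissue RNA, fewer cells of a type and less RNA per cell cannot be told apart.

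After cerulein, 4 of the 8 measured genes rose in wild type mice, namely S100a8, S100a9, Clec4d and Cd14, and 2 rose in transgenic mice, Clec4d and Cd14. None of the 8 fell in either genotype. Among all genes tested, 5.63% were called higher and 8.35% lower in wild type mice, and 4.78% were called higher and 3.42% lower in transgenic mice. These shares depended on single mice: the 1448 genes called lower in wild type mice became 657 without saline mouse 6 and 3181 without cerulein mouse 10. The median difference of the 8 genes was 1.44 in wild type and 0.57 in transgenic mice, where the median over all genes was -0.06 in both. These counts and medians are a description, because Clec4d and Cd177 were each well above background on 2 saline arrays and were measured only through the cerulein arrays. Transgenic mice given saline already had S100a8 and S100a9 levels above those of every wild type saline mouse, although neither difference passed the test over all genes.

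**Figure D1:**
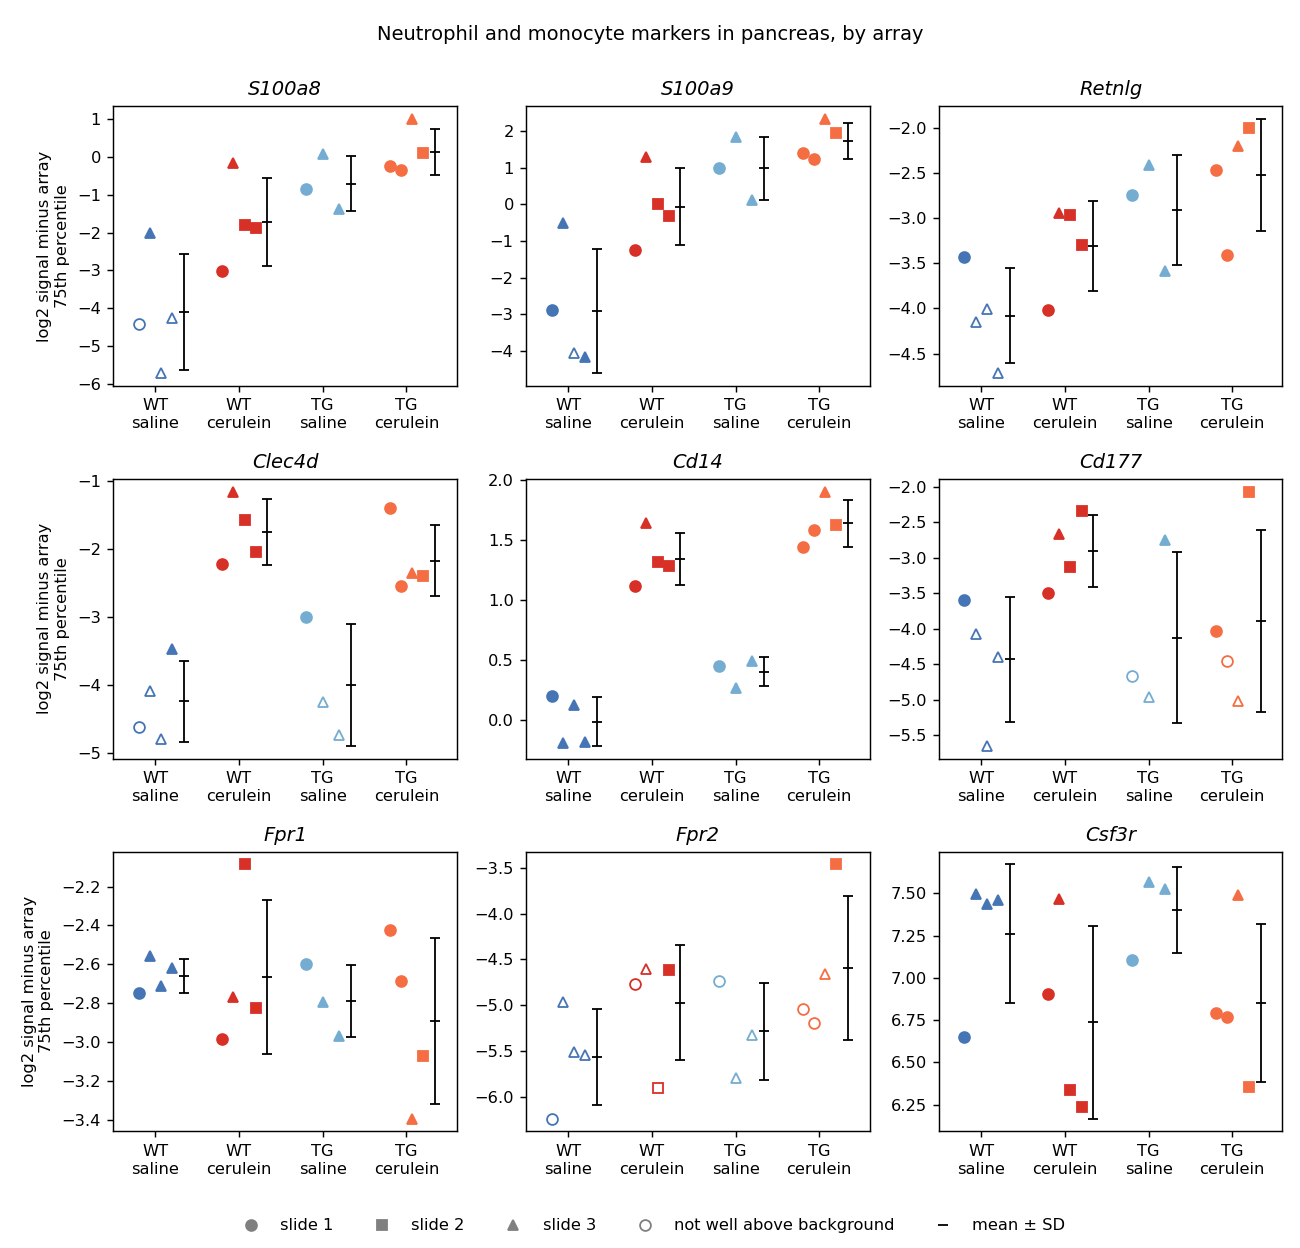
Level of each of the 9 markers with a probe on every array (y axis, log2 signal minus the array's 75th percentile) in the 4 groups on the x axis; point shapes mark the slide, open points a signal not well above background, and bars the mean ± SD. S100a8 and S100a9 sit lowest in wild type saline mice, Clec4d and Cd14 separate by treatment, and Csf3r stays between 6.24 and 7.57 on all arrays.

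S100a8 and S100a9 lie side by side on chromosome 3, with no gene starting between them in the RefSeq table. The 250 bases before each start site are shown because the 2 genes had their highest arrays in the same animals. They are given 5′ to 3′ on the gene's own strand from RefSeq's GRCm38.p6 assembly, with motif matches in capitals.

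S100a8, chr3:90668821-90669070, plus strand: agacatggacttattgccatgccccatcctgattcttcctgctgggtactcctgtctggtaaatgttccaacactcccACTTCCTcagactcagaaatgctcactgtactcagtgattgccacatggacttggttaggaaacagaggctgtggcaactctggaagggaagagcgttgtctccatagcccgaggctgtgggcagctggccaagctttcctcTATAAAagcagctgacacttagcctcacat
S100a9, chr3:90695722-90695971, minus strand: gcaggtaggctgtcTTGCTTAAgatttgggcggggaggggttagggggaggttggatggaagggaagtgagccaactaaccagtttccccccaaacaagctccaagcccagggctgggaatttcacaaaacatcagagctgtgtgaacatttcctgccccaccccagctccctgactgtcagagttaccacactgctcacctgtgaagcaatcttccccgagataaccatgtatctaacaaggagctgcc

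The motifs searched, on both strands, were TTGCNNAA for C/EBP factors, AGGAAGT for PU.1, TGANTCA for AP-1, TATAAA for the TATA box, and an NF-kB consensus. The S100a8 window held the PU.1 motif on the opposite strand, 172 to 166 bases before the start, and TATAAA, 30 to 25 bases before it. The S100a9 window held the C/EBP motif 236 to 229 bases before its start. Of 32851 such windows, 7.69% held the PU.1 motif, 12.4% the TATA box, 9.56% the C/EBP motif, 6.75% the AP-1 motif and 1.41% the NF-kB consensus. A match describes letters and not a bound site.

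S100a8 levels in wild type saline mice 5, 6, 7 and 8 were -4.41, -2.02, -5.71 and -4.24, and only mouse 6 was well above background. In wild type cerulein mice 9, 10, 11 and 12 the S100a8 level was -3.02, -0.18, -1.80 and -1.88. The groups overlapped, since saline mouse 6 exceeded cerulein mouse 9. The S100a8 level rose by 2.38 ± 0.69 on the log2 scale (SE, n = 4 and 4; limma adjusted p 0.0343). The rise rested on several single animals: without wild type saline mouse 5, 7 or 8, or cerulein mouse 10, 11 or 12, the adjusted p no longer passed, with values over single left-out mice from 0.00605 to 0.112. It also failed with normexp background correction, at 0.51, and with quantile normalization.

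Transgenic saline mice 2, 3 and 4 had S100a8 levels of -0.84, 0.06 and -1.37. All 3 lay above every wild type saline mouse, and mouse 3 lay above all 4 wild type cerulein mice, mice 2 and 4 above 3 of the 4. Transgenic cerulein mice 13, 14, 15 and 16 had levels of -0.25, -0.36, 1.00 and 0.10, which overlapped those of the transgenic saline mice. The S100a8 difference with cerulein in transgenic mice was 0.84 ± 0.75 (SE, n = 4 and 3; limma adjusted p 0.562).

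S100a9 followed the same order of animals within each group at the top: mice 6, 10, 3 and 15, all on slide 3, were highest for both genes. The S100a9 level in wild type saline mice was -2.90, -0.51, -4.05 and -4.18, and in wild type cerulein mice -1.24, 1.31, -0.00 and -0.33. Here too saline mouse 6 overlapped the treated group. The processed S100a9 signals of saline mice 5, 7 and 8 were dim, at 31.8, 9.64 and 11.1, and that of mouse 7 was not well above background. S100a9 rose by 2.85 ± 0.71 in wild type mice (SE, n = 4 and 4; limma adjusted p 0.0166), a call lost without saline mouse 7 or 8 (adjusted p up to 0.0607). With normexp background correction the S100a9 rise was 1.38.

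In transgenic mice the S100a9 level was 0.98, 1.85 and 0.13 after saline and 1.42, 1.25, 2.34 and 1.95 after cerulein. The groups overlapped, and the difference was 0.75 ± 0.77 (SE, n = 4 and 3; limma adjusted p 0.621).

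Within slides the wild type S100a9 difference was 1.66 on slide 1 (1 array against 1) and 4.22 on slide 3 (1 against 3), and for S100a8 it was 1.40 and 3.81. With slide as a block the values were 3.06 and 2.76. Without slide 2, neither gene's rise in wild type mice passed.

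Clec4d encodes a C-type lectin receptor of neutrophils and monocytes that recognises mycobacterial glycolipid. Its level was -4.60, -4.08, -4.79 and -3.46 in wild type saline mice and -2.22, -1.15, -1.57 and -2.05 in wild type cerulein mice. Every treated mouse lay above every saline mouse, and 1 of the 4 saline signals was well above background. Clec4d rose by 2.49 ± 0.41 (SE, n = 4 and 4; limma adjusted p 0.00105). With 2 of 7 saline signals well above background over both genotypes, Clec4d met the 3-array minimum only through the cerulein arrays, and the size of its difference rests on saline values near background.

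In transgenic mice the Clec4d level was -3.00, -4.25 and -4.73 after saline and -1.39, -2.54, -2.35 and -2.39 after cerulein. The groups did not overlap, and 1 of the 3 saline signals was well above background. The rise was 1.82 ± 0.44 (SE, n = 4 and 3; limma adjusted p 0.0179), lost without transgenic saline mouse 3 or 4. With normexp background correction, which adds 50 units to every signal, the Clec4d difference was 0.53 in wild type and 0.29 in transgenic mice and passed in neither. Clec4d differed by 0.24 ± 0.44 between the genotypes after saline and by -0.42 ± 0.41 after cerulein, neither of which passed. None of the 5 motifs was in the 250 bases before the Clec4d start.

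Cd14 encodes a lipopolysaccharide co-receptor that hands ligand to Toll-like receptor 4 and is made by monocytes, macrophages and, at lower levels, neutrophils. Its level was 0.20, -0.20, 0.12 and -0.19 in wild type saline mice and 1.12, 1.65, 1.32 and 1.29 in wild type cerulein mice. No overlap was seen, and all arrays were well above background. Cd14 rose by 1.36 ± 0.19 (SE, n = 4 and 4; limma adjusted p 0.000259).

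Transgenic mice had Cd14 levels of 0.45, 0.26 and 0.49 after saline and 1.44, 1.58, 1.90 and 1.63 after cerulein. These groups were also apart, and Cd14 rose by 1.24 ± 0.20 (SE, n = 4 and 3; limma adjusted p 0.00138). Cd14 passed the test in both genotypes under each of the 24 alternatives that held a test. Part of these alternatives left out a mouse of the other genotype, which could not change the difference. The rise was 0.92 on slide 1 and 1.73 on slide 3 within wild type mice, and 1.41 with slide as a block.

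The remaining measured markers did not pass in either genotype. Retnlg encodes resistin-like gamma, a secreted protein abundant in mouse neutrophils. Its level ranged from -4.71 to -3.44 in wild type saline mice, from -4.02 to -2.95 in wild type cerulein mice, from -3.59 to -2.41 in transgenic saline mice and from -3.41 to -2.01 in transgenic cerulein mice. The difference with cerulein was 0.77 ± 0.37 in wild type mice (limma adjusted p 0.175) and 0.39 ± 0.40 in transgenic mice (limma adjusted p 0.623).

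Cd177 encodes a glycoprotein on a subset of neutrophils that binds endothelial PECAM1. Its level in wild type mice was -3.60, -4.07, -5.65 and -4.40 after saline and -3.49, -2.67, -3.13 and -2.34 after cerulein. The groups did not overlap, yet the difference of 1.52 ± 0.63 did not pass (limma adjusted p 0.117). In transgenic mice the Cd177 level ranged from -4.96 to -2.74 after saline and from -5.01 to -2.07 after cerulein, with a difference of 0.23 ± 0.68. Clec4d, Cd14 and Cd177 were thus the 3 genes whose wild type groups did not overlap, where 7.34% of all genes were higher without overlap; in transgenic mice Clec4d and Cd14 did so, against 9.94% of all genes.

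Fpr1 and Fpr2 encode formyl peptide receptors, which guide neutrophils toward bacterial and mitochondrial peptides, and lie next to each other on chromosome 17. Fpr1 varied little, from -3.40 to -2.09 over all arrays. Its difference with cerulein was -0.01 ± 0.24 in wild type mice, with a 95% interval up to 0.51, and -0.11 ± 0.26 in transgenic mice, with an interval up to 0.45. Fpr2 was well above background in wild type cerulein mouse 12, at -4.61, and transgenic cerulein mouse 16, at -3.46, and in no saline mouse.

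Csf3r encodes the receptor for granulocyte colony-stimulating factor, which drives neutrophil production. Its probe was bright on every array, with a processed signal of 23812 to 47526, and its difference with cerulein was -0.52 ± 0.31 in wild type mice (limma adjusted p 0.266) and -0.55 ± 0.34 in transgenic mice (limma adjusted p 0.380). The Csf3r level moved with the slide: it was 6.65 to 7.11 on the 5 arrays of slide 1, 6.24 to 6.36 on the 3 arrays of slide 2 and 7.44 to 7.57 on the 7 arrays of slide 3. The mean level of the acinar genes took the same order, at 8.78 to 9.26, 8.42 to 8.72 and 9.29 to 9.98. With slide as a block, the Csf3r difference was 0.06 in wild type and -0.15 in transgenic mice. What the probe's brightness and slide pattern reflect was not tested.

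**Figure D2:**
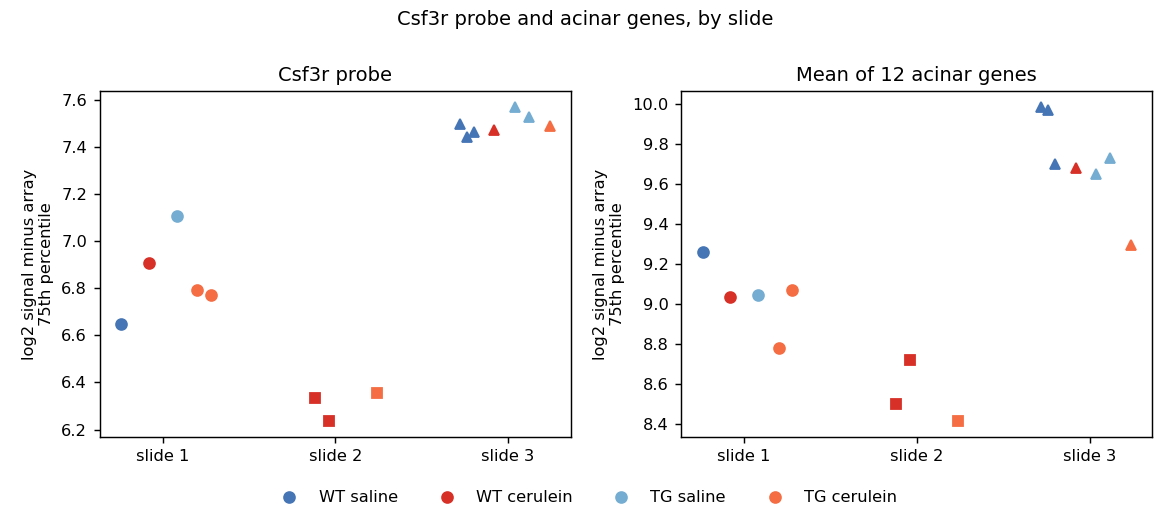
Csf3r level (log2 signal minus the array's 75th percentile) plotted by slide, each point an array coloured by group, beside the mean level of the acinar genes on the same arrays. Slide 3 is highest (7.44 to 7.57) and slide 2, which holds no saline array, lowest (6.24 to 6.36).

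Between genotypes after saline, none of the 8 genes passed, where 0.075% of all genes did so in either direction. S100a9 was 3.90 ± 0.77 higher in transgenic mice (SE, n = 3 and 4; unadjusted p 0.000155, limma adjusted p 0.122). S100a8 was 3.38 ± 0.75 higher (unadjusted p 0.000432, limma adjusted p 0.234), a difference taken against a group in which 1 of 4 signals was well above background. Within slides the S100a9 difference was 3.88 on slide 1 (1 array against 1) and 3.91 on slide 3 (2 against 3), and the S100a8 difference 3.57 and 3.34. The wild type saline S100a9 levels on slide 3 ran from -4.18 to -0.51, so so few arrays cannot show how closely the slides match. With normexp background correction the S100a9 and S100a8 differences were smaller, at 2.33 and 1.21 over all arrays. Wild type saline mouse 6, the highest of its group, decided the call. Without it, S100a9 differed by 4.70 (limma adjusted p 0.00823). The size of that difference rests on dim wild type saline signals, at 31.8, 9.64 and 11.1 in mice 5, 7 and 8. The S100a9 signal of mouse 7 was not well above background. S100a8 also passed then (limma adjusted p 0.0365), but none of the 3 remaining wild type saline signals was well above background, so its size is not given.

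Retnlg was 1.16 ± 0.40 higher in transgenic saline mice and Cd14 0.41 ± 0.20 higher, and neither passed (limma adjusted p 1.00 for each). S100a8, S100a9 and Cd14 were the 3 genes whose saline groups did not overlap, where 4.41% of all genes were higher without overlap. Of the 9 member probes, 3 to 6 were well above background in wild type saline mice and 6 to 7 in transgenic saline mice. After cerulein the numbers were 8 to 9 in wild type and 7 to 9 in transgenic mice. The shares over all probes were 54.9% to 65.3% and 60.1% to 68.2% after saline. After cerulein they were 65.1% to 76.0% in wild type and 63.8% to 74.7% in transgenic mice. Whether the member numbers differ beyond these shares was not tested.

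After cerulein, again no member passed between genotypes, where 0.144% of all genes did. S100a8 was 1.84 ± 0.69 higher in transgenic mice (limma adjusted p 0.548) and S100a9 1.81 ± 0.71 higher (limma adjusted p 0.593). Their groups overlapped, as did those of all 8 genes, where 1.57% of all genes were higher without overlap.

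The difference between the cerulein responses, transgenic minus wild type, was below 0 for all 8 genes and passed for none, and 0% of all genes passed. With normexp background correction it was above 0 for S100a8 (0.08), Retnlg (0.22) and Csf3r (0.01), and with quantile normalization for Fpr1 (0.07). With single mice left out it reached 0.22 for Csf3r and 0.10 for Fpr1, Fpr1 was at 0.17 without slide 2, and within slide 1 it was above 0 for Cd14, Cd177, Fpr1 and Retnlg (0.14 to 0.38). At an unadjusted p below 0.05, 134 genes and 0 members would have been counted. The widest were S100a9 at -2.10 ± 1.05 (unadjusted p 0.0652, limma adjusted p 1.00) and S100a8 at -1.54 ± 1.02 (unadjusted p 0.151). The 95% interval for S100a9 reached 0.15 and that for S100a8 reached 0.63, so a smaller response in transgenic mice was not shown for either. This contrast and the saline genotype contrast share the saline arrays.

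**Figure D3:**
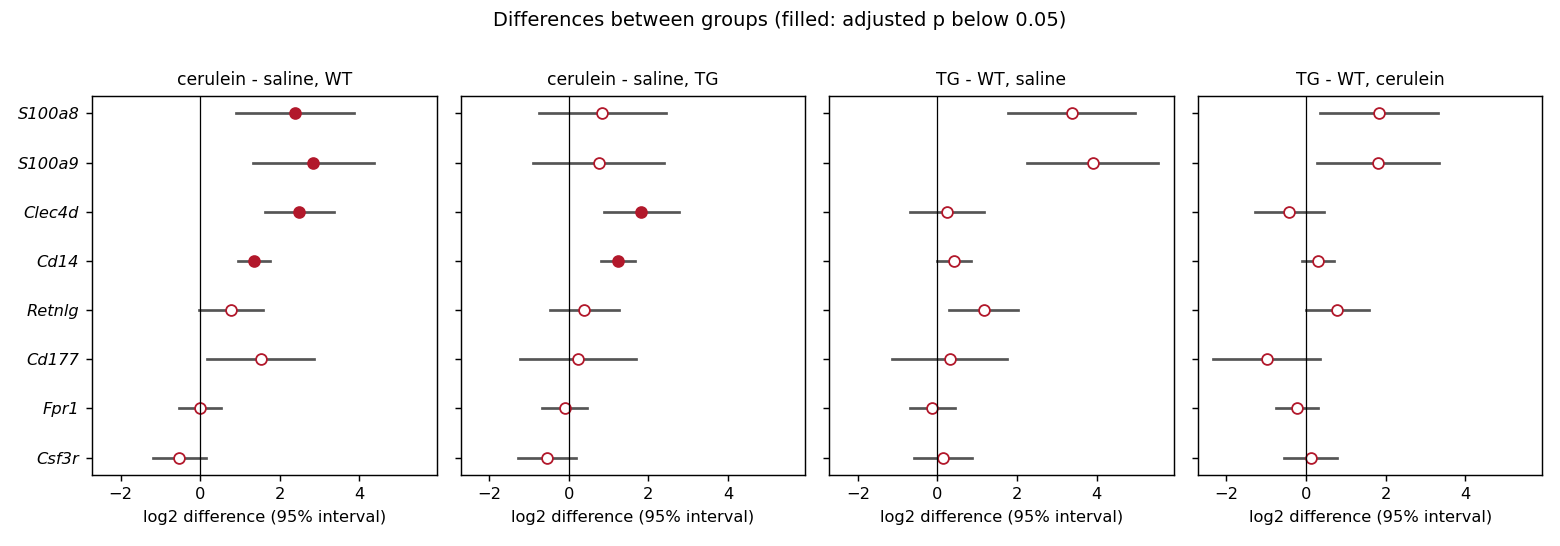
Difference in level of each measured marker (x axis, log2, with 95% intervals as bars) for the cerulein comparisons and the genotype comparisons; filled points passed the adjusted test and open points did not. Clec4d and Cd14 are filled in both genotypes, S100a8 and S100a9 in wild type mice, and no genotype comparison is filled.

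Of 32 further neutrophil genes, 23 were measured; 2 rose and 1 fell in wild type mice (median 0.18, and -0.01 with slide as a block) and 1 rose in transgenic mice (median -0.14, and -0.07 with the block). Counts this small cannot be set apart from the shares over all genes, 5.63% higher and 8.35% lower in wild type and 4.78% higher in transgenic mice. Lcn2, which encodes the iron-siderophore binder lipocalin 2 and is also made by epithelial cells, rose by 1.28 ± 0.26 in wild type mice (limma adjusted p 0.00448) and by 1.08 ± 0.28 in transgenic mice (limma adjusted p 0.0264). Il1r2, the decoy receptor of interleukin 1, was at least 1.29-fold higher in wild type cerulein mice, its saline signals being not well above background (limma adjusted p 0.00296). Il1r2 was well above background on no saline array of either genotype and was measured only through the cerulein arrays. Pglyrp1, a granule protein that binds peptidoglycan, fell by 1.02 in wild type mice (limma adjusted p 0.04999). The granule enzyme genes Mmp8 and Mmp9 were well above background on 0 arrays, and Ngp on 2.

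Granule genes that neutrophils make in the marrow were named after their values were seen. Mpo was 1.24 ± 0.46 higher in transgenic than in wild type saline mice and Camp 1.06 ± 0.27, with limma adjusted p of 1.00 and 0.414. Ltf was well above background in 0 of 4 wild type and 2 of 3 transgenic saline mice. The saline groups of these 3 genes did not overlap, as for 4.41% of all genes. Elane, of the same list, differed by 0.03 ± 0.29 with overlapping groups, Prtn3 had mean levels of -3.02 and -3.08 in transgenic and wild type saline mice, and the list median was 0.26. Camp was also apart after cerulein, at 0.94 ± 0.25 (limma adjusted p 0.248). With cerulein, Mpo and Camp differed by 0.56 and 0.18 in wild type mice, neither passing.

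Of 15 measured monocyte genes, 1 rose in wild type mice (Chil3, a chitinase-like protein, by 0.91 ± 0.20, limma adjusted p 0.00792) and 1 fell in transgenic mice (Vcan, the proteoglycan versican, by 0.84 on its brightest probe, limma adjusted p 0.0477). The other 2 kept probes of Vcan differed the other way, by 1.19 and 1.10, and over all probes the brightest had a limma adjusted p of 0.0639. The medians of the monocyte genes were -0.12 and -0.14, and turned to 0.28 and 0.04 with slide as a block. Of 14 measured resident macrophage genes, Lyve1 rose by 1.22 ± 0.38 in wild type mice (limma adjusted p 0.0465) and no other member of that list passed in either genotype. With slide as a block, 2 genes of that list rose in transgenic mice. Adgre1, the F4/80 antigen named after its values were seen, differed by 0.08 ± 0.29 and 0.04 ± 0.31. The erythrocyte and platelet list, a marker of blood left in the tissue, had 0 of 11 measured genes called in either genotype, but all 11 differences with cerulein were above 0 in both, with medians of 0.28 and 0.29. Its summed level ranged from 131 to 483 in wild type saline, 146 to 792 in wild type cerulein, 210 to 426 in transgenic saline and 163 to 800 in transgenic cerulein mice. Wild type mice 6 and 10, highest of their groups for S100a8 and S100a9, were also highest here, whereas in the transgenic groups mice 2 and 16 were highest. The part of blood in the marker results was not tested.

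The attractants Cxcl1, Ccl2, Ccl3 and Ccl7 rose in both genotypes. Of 18 attractants, growth factors and receptors, 12 were measured, and 5 rose and 0 fell in each genotype, with medians of 1.54 and 1.19. The receptor C5ar1 is among those 5. With slide as a block the same number rose and the medians were 0.91 and 0.65. These counts and medians are a description, because Cxcl1, Cxcl5, Ccl3, Ccl7, C5ar1 and Il6 were measured only through the cerulein arrays. Each of these genes was well above background on fewer than 3 saline arrays. Ccl7, a monocyte chemokine, was at least 15-fold higher in wild type cerulein mice (limma adjusted p 1.36e-06) and at least 15.4-fold higher in transgenic mice (limma adjusted p 9.9e-06), since no saline signal was well above background. Cxcl1, the main mouse neutrophil chemokine, was at least 5.16-fold and at least 6.81-fold higher (limma adjusted p 2.5e-07 and 4.09e-07).

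Ccl2, which recruits monocytes through CCR2, was well above background in every mouse. Its level was -1.94, -2.77, -2.94 and -1.97 in wild type saline mice and 1.07, 0.68, 0.49 and 1.37 in wild type cerulein mice. The groups were far apart, and Ccl2 rose by 3.31 ± 0.30 (limma adjusted p 9.35e-06) in wild type and by 2.83 ± 0.33 (limma adjusted p 0.000102) in transgenic mice. Ccl3 was at least 2.88-fold higher in wild type cerulein mice and rose by 1.63 ± 0.41 in transgenic mice (limma adjusted p 0.0216). C5ar1, the receptor of the complement fragment C5a, passed in both genotypes, but its signals were too dim for a fold. Csf3 and Csf2, which encode granulocyte growth factors, and Il1a were well above background on 0 arrays, and Il1b on 2.

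**Figure D4:**
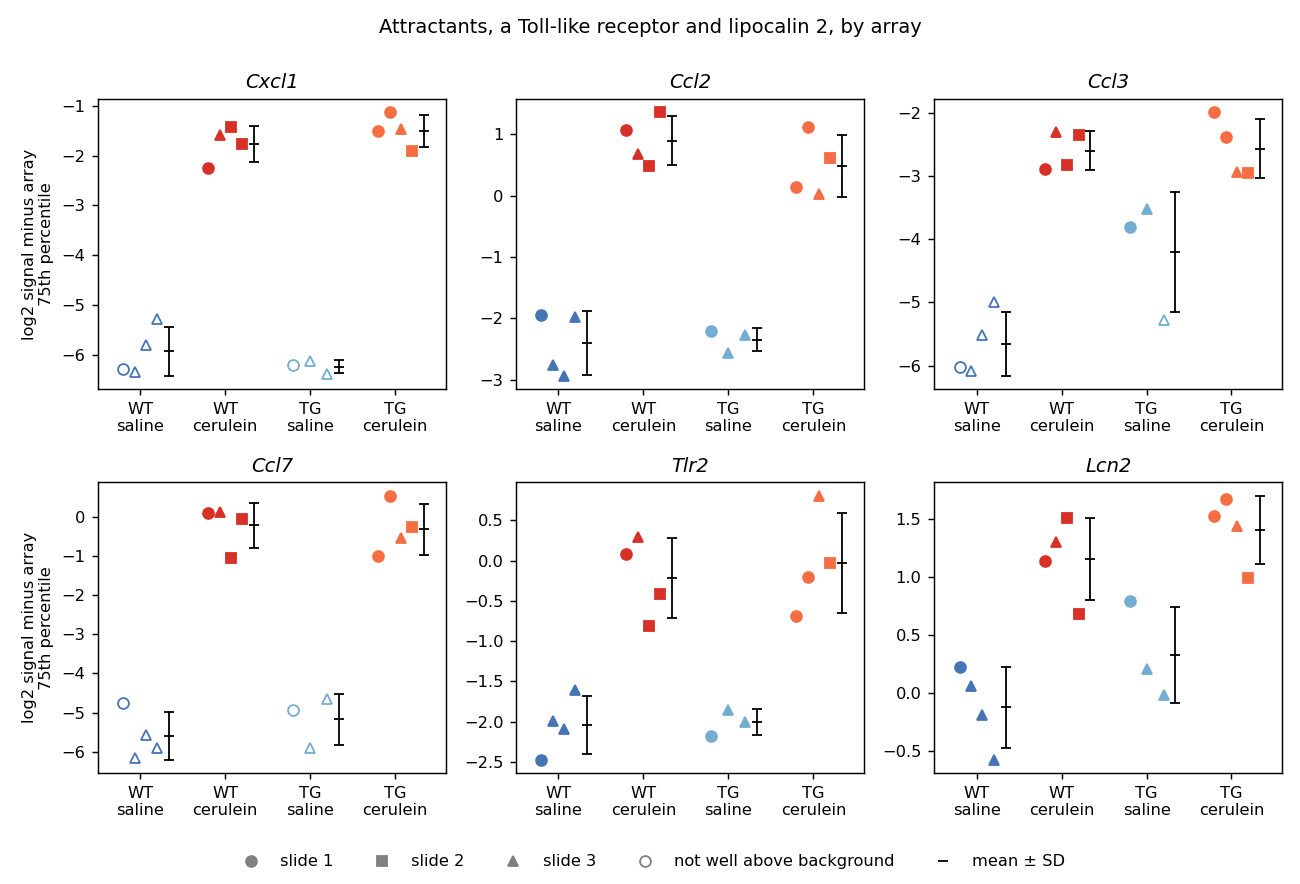
Level (log2 signal minus the array's 75th percentile) of 4 chemokines, Tlr2 and Lcn2 on every array by group; shapes mark the slide, open points a signal not well above background, and bars the mean ± SD. Cxcl1 and Ccl7 are open on all saline arrays and filled on all cerulein arrays of both genotypes.

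Among 12 measured partners of Cd14 and Toll-like receptor 4, 2 rose and 0 fell in each genotype, with medians of 0.35 and 0.41. Such small counts cannot be set apart from the shares of all genes called higher, 5.63% in wild type and 4.78% in transgenic mice. Ager, of the same list, was well above background on 0 saline arrays and was measured only through the cerulein arrays. Tlr2, which pairs with Cd14 for bacterial lipoproteins, rose by 1.83 ± 0.32 (limma adjusted p 0.0016) and 1.98 ± 0.34 (limma adjusted p 0.00226), and the adaptor Tirap by 1.07 ± 0.26 and 1.17 ± 0.28 (limma adjusted p 0.0134 and 0.0179). Tlr4 itself, named after its values were seen, differed by -0.18 ± 0.41 and 0.27 ± 0.44. Of 9 measured genes of the Clec4 cluster and its signalling partners, the adaptor Bcl10 rose in both genotypes, by 0.95 ± 0.25 and 1.35 ± 0.27. Its partner Malt1 fell by 1.31 in wild type mice (limma adjusted p 0.0338). The Malt1 groups overlapped, and with slide as a block 0 genes of that list were called lower in wild type mice. Card9, of the same list, was well above background on 1 saline array and was measured only through the cerulein arrays.

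Relatives of the markers were read in the same way. Of 12 measured other S100 genes, S100g, a calcium-binding protein of epithelia, rose by 5.51 ± 1.01 in wild type mice (limma adjusted p 0.00243), S100a14 was at least 1.89-fold higher in transgenic cerulein mice, and S100a5 fell by 1.22 and 0.87. S100a14 was well above background on 3 of the 4 transgenic cerulein arrays and on no other array. It met the 3-array minimum only through that group, so its difference is a description. Among 11 measured Ly6 family genes and Cd177 partners, Plaur, the urokinase receptor, rose by 1.81 ± 0.31 and 1.82 ± 0.33. In the resistin family, Retnla fell by 1.26 in wild type mice (limma adjusted p 0.0338), but with slide as a block 0 genes of that family were called lower. In the formyl peptide receptor family and its ligand, 0 of 4 measured genes passed. With slide as a block, 1 gene of that list rose and 1 fell in transgenic mice. Of the lists for other cell types, 0 of 13 measured lymphocyte, 7 islet and 12 endothelial and fibroblast genes passed with cerulein in the fit without slide. Of 8 mast cell and eosinophil genes 1 did, Kit, which fell by 1.35 in wild type mice. With slide as a block, 2 lymphocyte genes and 1 endothelial and fibroblast gene were called lower in transgenic mice. The duct factor Sox9 fell by 1.68 and 1.27, the only 1 of 6 duct genes called, whereas with slide as a block 1 duct gene also rose in each genotype. Among the 12 acinar genes, Rbpjl fell by 1.82 and 1.73 and Ptf1a rose by 1.17 ± 0.32 and 1.68 ± 0.35 in wild type and transgenic mice, and Bhlha15 fell by 1.24 in wild type mice; these encode acinar transcription factors. In the fit without slide, no gene of any of these lists passed between genotypes after saline, where 0.075% of all genes did. After cerulein, where 0.144% did, the collagen genes Col1a1 and Col1a2 were higher in transgenic mice, by 2.51 ± 0.46 and 1.91 ± 0.34 (limma adjusted p 0.0467 and 0.0382). With slide as a block, 2 endothelial and fibroblast genes, 1 further neutrophil gene and 1 S100 gene were called higher in transgenic mice after saline. After cerulein that fit called 5 endothelial and fibroblast genes higher, and 1 gene each of the further neutrophil, monocyte and islet lists.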

How the data were processed

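Each of 15 arrays measured RNA from 1 mouse pancreas, labelled with Cy3 and hybridised in 1 colour to an Agilent array. The deposited intensity values came from Agilent Feature Extraction, version 10.7.3.1 (named in the submitters' processing notes); spatial detrending of the background is recorded, per the file headers. The deposited other columns hold the scanner's flags per spot, per the file headers. The authors' deposited log2 values for the whole series covered 42482 probes and was used as an alternative.

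Control spots and 105 to 188 outlier spots per array were left out of 59305 spots, and spots of 1 probe were averaged, giving 55681 probes; no probe was saturated. The level was log2 of the processed signal after subtracting, on the log2 scale, that array's 75th percentile. Of the probes, 27235 had 1 gene symbol through the RefSeq accession and 28446 had none. Probes well above background on at least 3 arrays were kept (42187), and each gene was read from its brightest kept probe by mean over all arrays. Group means were fitted with limma 3.58.1 in R 4.3.3 over all 15 arrays, two-sided, with Benjamini-Hochberg adjustment over 17339 genes. No label says that the animals were handled apart. The main fit held no term for slide, and the groups lay unevenly over the slides. Its p-values therefore measure a spread in which mice and slides are mixed. An "at least" fold set the bright group's mean against the higher of the probe's own signal and the lowest signal well above background in the dim group.

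The members and all lists were chosen with earlier results of these data known. The text names all members, from each other list the 2 called genes with the largest change per cerulein comparison (all where 3 or fewer), and any list gene called between genotypes. On simulated data for the wild type cerulein comparison (17318 genes, 200 changed), 24% of changes of 1 on the log2 scale and 74% of changes of 2 were recovered. In the real comparison 2424 of 17339 genes were called. The Benjamini-Hochberg cut-off depends on how many genes change, so these rates do not give the power of the real comparison. The files hold no mean signal column, so the normexp alternative used the median signal. Slides (3) were told apart by array barcode; scans fell on 2 days. The number of arrays limits the precision.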

Additional observations from a re-analysis of the deposited data

Results flagged for a closer look

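Of 27 groups of 4 mice examined for a mouse far from the other 3, 3 held one; chance gives about 1 in 20 groups. Clec4d in transgenic cerulein mouse 13 was the highest of its group at -1.394. Csf3r in wild type saline mouse 5, the 1 mouse of its group on slide 1, was the lowest at 6.649. Fpr2 in wild type cerulein mouse 11 was the lowest at -5.909, not well above background.

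Fpr2 was left out of the tests, yet its signal was well above background in wild type cerulein mouse 12 at -4.612 and in transgenic cerulein mouse 16 at -3.461, both on slide 2, and in no saline mouse. Slide 2 held no saline array, so slide and treatment cannot be told apart for these signals.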

How the results depend on the processing

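Over 27 alternatives, the 6 called values of the markers were refitted 140 times and kept their call in 124, with 0 reversals. In wild type mice S100a8 kept its call in 14 of 23 refits, S100a9 in 20 of 23 and Clec4d in 22 of 23. In transgenic mice Clec4d kept its call in 20 of 23. Of 795 refits of uncalled values, 43 changed sign and 2 became called. Part of both sets of refits left out a mouse outside the compared groups, so the difference itself could not change there. Averaging kept probes could not change it either, since each marker had 1 probe. The count of markers called higher with cerulein in wild type mice, 4, was 2 with normexp background correction, 2 without slide 2, 1 where probes had to be well above background on all arrays, and 2 to 4 with single mice left out. In transgenic mice the count of 2 was 1 with normexp, 1 with the all-array filter, and 1 to 2 with single mice left out. After saline, the genotype count was 0 to 2 with single mice left out, the 2 being S100a8 and S100a9 without wild type saline mouse 6. The genotype count after cerulein and that for the difference of responses were 0 throughout. The normexp correction adds 50 units to every signal, more than any S100a8 signal in wild type saline mice (3.06 to 37.5), and moves the median of all genes to -0.23 and -0.20. The all-array filter removed S100a8, S100a9 and Clec4d, which were well above background on 12, 14 and 10 arrays. Their calls were therefore not tested under that filter. The cause of the other changes was not tested. S100a8 in wild type mice also lost its call under quantile normalization. Over all genes, higher calls went from 976 to 2387 in wild type mice with slide as a block, all calls in transgenic mice from 1422 to 4082 and lower ones from 593 to 1447, and lower calls in wild type mice from 1448 to 2236 with normexp. With single mice left out, lower calls in wild type mice ranged from 657 to 3181: 657 to 773 without saline mouse 6, 7 or 8 or cerulein mouse 11 or 12, and 3181 without cerulein mouse 10. All calls in transgenic mice ranged from 695 (without saline mouse 3) to 1831, with 749 without saline mouse 4 and 869 without cerulein mouse 14. No paired analysis was possible because the labels number each animal once and the groups share no numbers. Dim signals limit S100a8, Clec4d, Cd177 and Retnlg, which were near background in most wild type saline mice. They also limit S100a9, with signals of 31.8, 9.64 and 11.1 in wild type saline mice 5, 7 and 8.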
